A study of Gossypium arboreum with 12 samples.

Results

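The line by stage interaction measured, for every transcript on the cotton GeneChip, how far the difference between a fuzzy-lintless (*Fl*) and a fuzzy-linted (*FL*) line of the diploid cotton *Gossypium arboreum* changed between fibre initiation and fibre elongation. It was taken as *Fl* minus *FL* at 10 days post anthesis (dpa) minus the same line difference at 0 dpa, so that a lower (negative) interaction means that *Fl* lost ground on *FL* between the stages and a higher (positive) one that it gained. All 12 arrays of the series entered, 3 biological replicates for each line at each stage, and all 21791 transcript probe sets were tested after the spiked and housekeeping control probe sets had been left out. The *FL* plants were the wild-type cultivar, the *Fl* plants were the mutant ANOI 1960, and both were grown in the field without any treatment. RNA came from whole ovules, which carried elongating fibre cells only in *FL* at 10 dpa. The study called the *Fl* line near isogenic to *FL*, but not perfectly so. This line came from crossing *FL* to *Fl* as the recurrent parent and was derived at the first backcross generation. The lint mutation therefore cannot be told apart from other differences between the lines.

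A cotton fibre is a single outgrown cell of the ovule epidermis. Fibre cells bulge from the surface around the day of anthesis and then lengthen for weeks, which calls for loosened cell walls, a rebuilt cytoskeleton, much turgor and a large supply of wall polysaccharides and membrane lipids. Ethylene, auxin, gibberellin and brassinosteroid are known to act on this growth in cotton ovules. Lint is the long fibre that is spun, and fuzz is the short fibre that stays on the seed.

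Levels are given on the log2 scale as deposited, with each probe set set to a median of 0 over the 12 arrays, so that a level compares samples for 1 transcript and never 1 transcript with another. Names are those of the closest *Arabidopsis thaliana* gene in the study's transcript lists, and roles are those known for that gene or its family. The 12 arrays had similar medians, between -0.05 and 0.02, but the values of the *FL* arrays at 10 dpa were more widely spread (SD 0.49 to 0.50 over transcripts) than those of the other 9 arrays (SD 0.35 to 0.36). Spiked hybridization controls, 27 probe sets to which no plant RNA contributes, differed between the lines (*Fl* minus *FL*) by -0.65 at 0 dpa and by -0.15 at 10 dpa, an interaction of 0.50. The stage field of *FL* 10 dpa replicate 1 named 0 dpa, against its title. It was kept in the group of its title, and it correlated at 0.914 to 0.915 with the other *FL* arrays of 10 dpa and at -0.565 to -0.555 with those of 0 dpa. Fibre-cell transcripts (expansin-like B1, beta-6 tubulin, profilin 5 and actin depolymerizing factor 5, on 5 probe sets) had mean levels of 3.79 to 4.05 on the *FL* arrays of 10 dpa and of -0.34 to 0.16 on the other 9. All 5 came from the study's 10 dpa list, made from line differences on these same arrays. Their contrast between the lines at 10 dpa was thus set by the listing and is no independent measure of fibre content.

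An interaction was called where it reached 3-fold with an adjusted p of at most 0.01 (Benjamini-Hochberg, limma fit to all 12 arrays). It was called for 355 of the 21791 transcripts, 1.63%. Of these, 335 (1.54% of all tested) were lower and 20 (0.0918%) were higher, while at the same adjusted p without the fold limit 1432 (6.57%) were lower and 1263 (5.8%) were higher. The median standard error of an interaction was 0.14 over all transcripts, against a 3-fold limit of 1.58 on the log2 scale, and the median interaction over all transcripts was 0.06. Because the samples were whole ovules, fewer cells of a kind and less RNA per cell cannot be told apart in any of the values that follow.

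Each called interaction was described by the group that stood apart. This was the group without which the remaining 3 group means lay closest together, provided that they then spanned no more than 0.5 of the size of the interaction. The rule used the same group means as the interaction, so the classes are a description without a test. The *FL* ovules stood high at 10 dpa for 167 transcripts, the *Fl* ovules stood high at 0 dpa for 55, the *Fl* ovules stood low at 10 dpa for 42 and the *FL* ovules stood low at 0 dpa for 13. The *Fl* ovules stood high at 10 dpa for 10 transcripts, the *FL* ovules high at 0 dpa for 2 and low at 10 dpa for 1. For the remaining 65 no single group stood apart. The limit passed between 29 transcripts whose other groups spanned 0.45 to 0.5 of the interaction and 8 at 0.5 to 0.55. Lower interactions with a group apart therefore had 4 forms. These were a late rise in *FL*, an early excess in *Fl*, a late loss in *Fl* and an early deficit in *FL*, of which the first was the most frequent. A further 58 lower interactions had no single group apart.

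**Figure D1:**
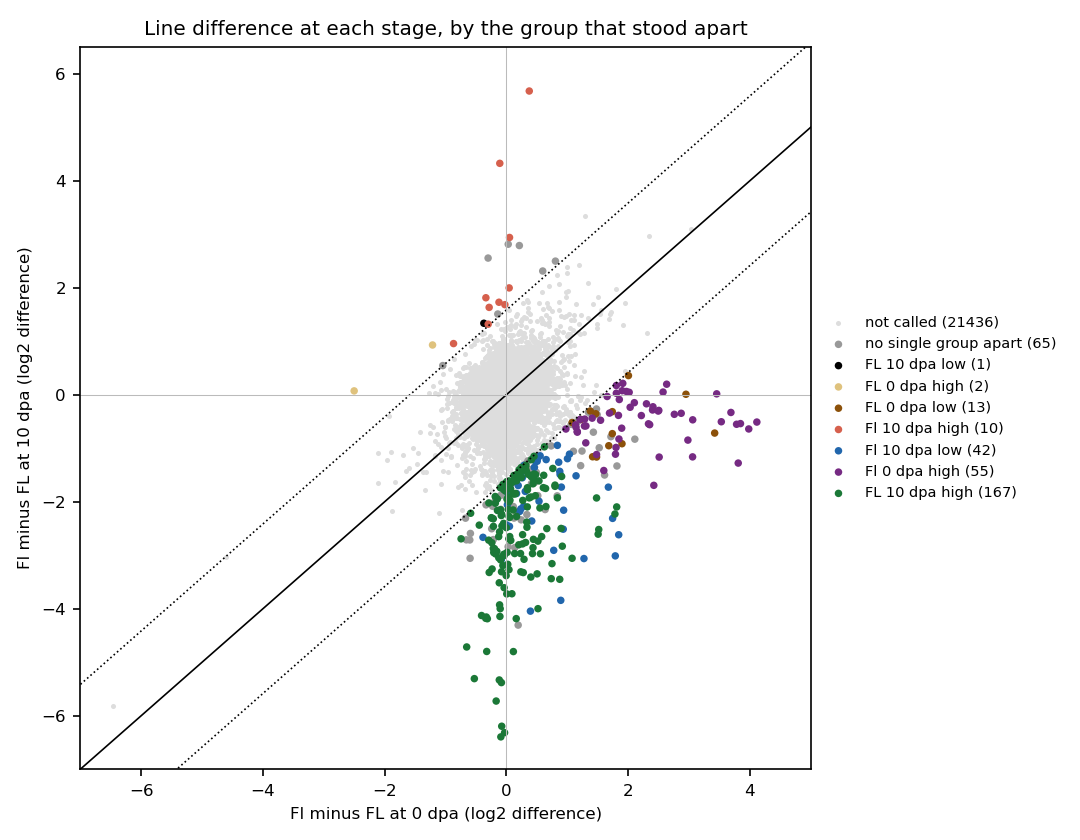
Line difference (*Fl* minus *FL*, log2) at 0 dpa on the horizontal axis and at 10 dpa on the vertical axis for every transcript, with the 355 called interactions coloured by the group that stood apart, pale grey points for those not called, a solid line of equal differences and dotted lines at a 3-fold interaction. The 167 transcripts high in *FL* at 10 dpa hang below the dotted line near 0 at 0 dpa, the 55 high in *Fl* at 0 dpa extend to the right, and the 20 higher interactions lie above the upper dotted line.

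The late rise in *FL* held the lowest interactions of the series. Its 167 transcripts, of which 118 had a named homolog, ran from -6.31 to -1.60 with a median of -2.49, and their median levels were -0.18 in *FL* and -0.05 in *Fl* at 0 dpa, 2.17 in *FL* at 10 dpa and -0.14 in *Fl* at 10 dpa. The 3 *FL* arrays of 10 dpa lay above all 9 others for 166 of them. This was true of 10.9% of all transcripts tested, and nothing is read from the count since the class was formed on these levels. The rise from 0 to 10 dpa passed the threshold (3-fold, adjusted p at most 0.01) in *FL* for 123, where 2.94% of all transcripts passed, and in *Fl* for none (1.83%), while 2 fell in *Fl*. At 10 dpa *Fl* was below *FL* past the threshold for 141 (1.04% of all). Wall and surface proteins, ethylene synthesis and nitrogen metabolism were among the 10 leading homologs.

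A D-mannose binding lectin-like transcript (AT1G78860.1), of a family of sugar-binding proteins, led the class. Its levels were -0.43, -0.05 and -0.51 in *FL* and -0.46, -0.46 and -0.34 in *Fl* at 0 dpa, then 6.58, 6.60 and 6.85 in *FL* and 0.05, 0.18 and 0.61 in *Fl* at 10 dpa. The rise in *FL* was 129-fold. In *Fl* the late arrays also lay above the early ones, by 0.70 (1.63-fold), and the interaction was -6.30 (SE 0.21, adjusted p = 2.0e-09). Peroxidase 2 (AT5G06720.1) belongs to the secreted peroxidases that use hydrogen peroxide in the cell wall. It stood at -0.20 to 0.17 on all 6 arrays of 0 dpa, at 6.05, 6.24 and 5.92 in *FL* at 10 dpa and at -0.31, -0.39 and -0.04 in *Fl* at 10 dpa (interaction -6.29, SE 0.17, adjusted p = 5.8e-10). The *Fl* arrays of 10 dpa overlapped those of 0 dpa, and a second probe set of the same homolog gave -3.20. Expansin-like B1 (AT4G17030.1), of the superfamily of expansins that loosen cell walls, measured 5.98, 6.13 and 5.93 in *FL* at 10 dpa and between -0.44 and 0.05 on every other array. Its 2 probe sets had interactions of -6.12 (SE 0.19) and -5.56 (SE 0.19).

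Ethylene-forming enzyme (AT1G05010.1) catalyses the last step of ethylene synthesis from 1-aminocyclopropane-1-carboxylic acid (ACC). Its leading probe set measured 0.05, 0.02 and 0.01 in *FL* and -0.07, -0.20 and -0.01 in *Fl* at 0 dpa, then 3.64, 3.83 and 3.72 in *FL* and -1.68, -1.50 and -1.63 in *Fl* at 10 dpa. The lines lay close together at 0 dpa and far apart at 10 dpa, with a stage change of 3.70 in *FL* and of -1.51 in *Fl*, the latter under 3-fold, and an interaction of -5.22 (SE 0.10, adjusted p = 1.3e-10). A related oxygenase (AT1G12010.1) had stage changes of 3.30 in *FL* and -1.48 in *Fl* and an interaction of -4.78 (SE 0.11). The upstream enzyme ACC synthase 6 (AT4G11280.1) had an interaction of -1.50 (SE 0.11), short of the 3-fold limit, with a change of 2.47 in *FL* and 0.97 in *Fl*. Of the 5 probe sets for ethylene synthesis, 4 were called lower.

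Senescence-associated gene 21 (AT4G02380.1), a stress-induced protein of the late embryogenesis abundant group in *Arabidopsis*, had interactions of -4.52 (SE 0.13) and -3.84 on its 2 probe sets. UDP-glucose/UDP-galactose 4-epimerase 1 (AT1G12780.1) interconverts 2 nucleotide sugars from which wall polysaccharides are made. It measured 3.94, 4.17 and 4.21 in *FL* at 10 dpa and between -0.35 and 0.07 on the other 9 arrays (interaction -4.35, SE 0.17). A second probe set of the epimerase had -1.64. A leucine-rich repeat protein (AT1G33590.1) was lower on 3 of 3 called probe sets (-5.30, -3.81 and -2.53), and a lipid-transfer protein (AT3G22600.1, a weak match) had -4.92. The other 3 lipid-transfer probe sets did not pass, at -1.48, 0.93 and 1.11, so that this family had no common direction. Glutamine-dependent asparagine synthase 1 (AT3G47340.1), which makes the nitrogen carrier asparagine, was lower on 5 of 5 probe sets, from -4.50 to -2.92.

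The late rise in *FL* depended on how the arrays were scaled. When the deposited values of all arrays were forced onto 1 common distribution (quantile normalization), 95 of the 167 stayed called and 67 kept their class, and the lectin interaction shrank from -6.30 to -4.65. Among the named probe sets that lost their call were 1 each of asparagine synthase 1 (-2.97 to -1.56), the leucine-rich repeat protein (-2.53 to -1.50) and the epimerase (-1.64 to -0.91). With arrays centred on their hybridization controls all 167 stayed called. This centring lowers every interaction by 0.50, so it could hardly remove a lower call and says little about these.

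**Figure D2:**
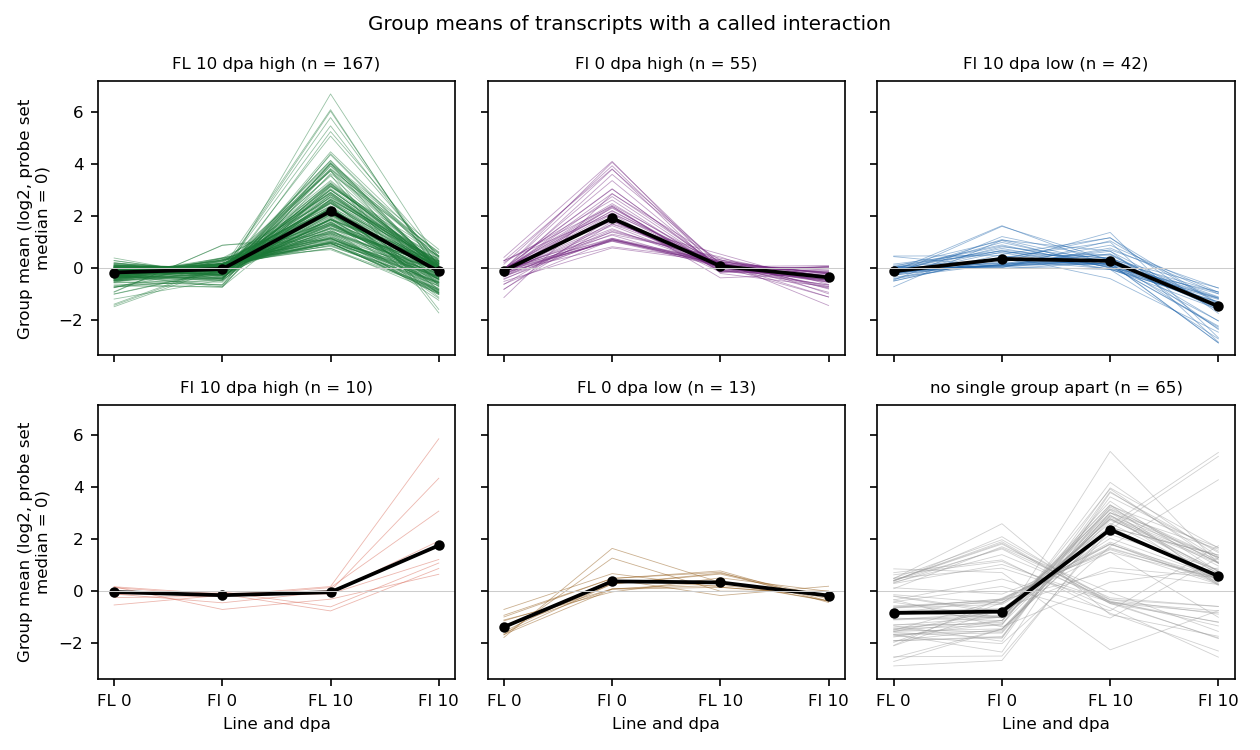
Group means (log2, each transcript set to a median of 0) of the transcripts in 6 classes, with a thin line for each transcript and a black line for the class median. The median level reached 2.17 in *FL* at 10 dpa in the late-rise class, 1.90 in *Fl* at 0 dpa in the early-excess class and -1.48 in *Fl* at 10 dpa in the late-loss class.

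The early excess in *Fl* concerned 55 transcripts, 32 of them with a named homolog. Of the 10 leading homologs, 5 were regulatory proteins, namely 3 transcription factors of the AP2-EREBP and C2H2 families, a RING finger protein, of a group that commonly acts as ubiquitin ligases, and a calcium-binding protein, while 3 had no known function. Interactions ran from -5.09 to -1.62 with a median of -2.52. Median levels were -0.12 in *FL* and 1.90 in *Fl* at 0 dpa, then 0.06 and -0.37 at 10 dpa. The 3 *Fl* arrays of 0 dpa lay above the other 9 for 55 of 55 (6.36% of all transcripts, and again the class was formed on these levels). The fall from 0 to 10 dpa passed the threshold in *Fl* for 44 (1.08% of all transcripts) and no stage change passed in *FL*. At 0 dpa *Fl* was above *FL* past the threshold for 42 of the 55 (0.317% of all transcripts).

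The lowest interaction of this class was that of a transcript of unknown function (AT4G29780.1). Its levels were -0.15, -0.11 and -0.40 in *FL* and 3.58, 3.58 and 3.60 in *Fl* at 0 dpa, then 0.24, 0.11 and 0.12 in *FL* and -0.97, -1.16 and -1.25 in *Fl* at 10 dpa. The *Fl* line was thus far above *FL* at 0 dpa and somewhat below it at 10 dpa, without overlap at either stage (interaction -5.09, SE 0.13, adjusted p = 3.5e-10). Other transcripts of unknown function shared the pattern: a second probe set of this homolog had -4.39, AT3G11760.1 had -3.83, and the 2 probe sets of AT5G12010.1 had -3.53 and -3.44.

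The AP2-EREBP factor AT1G19210.1, of a DNA-binding family with many stress and ethylene response members, measured -0.03, -0.21 and 0.04 in *FL* and 4.21, 3.96 and 3.97 in *Fl* at 0 dpa. At 10 dpa it measured 0.19, 0.03 and -0.14 in *FL* and -0.35, -0.77 and -0.32 in *Fl*, all close to the early *FL* level (interaction -4.63, SE 0.18, adjusted p = 6.7e-09). Its other 2 probe sets had -4.04 and -1.91, and a relative, AT5G51190.1, had -4.22 (SE 0.11). A RING finger transcript (AT5G59550.1) started below base in *FL*, at -0.75, -1.39 and -1.29, and high in *Fl*, at 2.84, 2.70 and 2.97. At 10 dpa *FL* was at 0.30, 0.34 and 0.25 and *Fl* at -0.35, -0.44 and -0.25, so that the order of the lines was inverted (interaction -4.62, SE 0.20, adjusted p = 1.1e-08). Terpene synthase 21 (AT5G23960.2), which makes sesquiterpenes in *Arabidopsis* flowers, ran from -0.71 to -0.10 in *FL* and from 1.90 to 2.23 in *Fl* at 0 dpa. At 10 dpa it ran from 0.10 to 0.40 in *FL* and from -1.63 to -1.33 in *Fl* (interaction -4.12, SE 0.21), an inversion past 3-fold at both stages.

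An EF-hand protein (AT4G27280.1), of a family that binds calcium, measured -0.96 to -0.66 in *FL* and 1.64 to 1.76 in *Fl* at 0 dpa, against 0.47 to 0.57 in *FL* and -0.84 to -0.47 in *Fl* at 10 dpa (interaction -3.68, SE 0.14). Rotundifolia like 12 (AT4G13395.1, a weak match) had -4.02 (SE 0.30). The small subunit of ribulose bisphosphate carboxylase (AT5G38430.1), the carbon-fixing enzyme of chloroplasts and a member of the green-tissue markers, measured 1.65, 1.66 and 1.71 in *Fl* at 0 dpa, -0.17 to -0.01 in *FL* at 0 dpa, 0.01 to 0.35 in *FL* at 10 dpa and -0.96 to -0.93 in *Fl* at 10 dpa (interaction -2.90, SE 0.12). It was 1 of 4 green-tissue transcripts examined. All 4 came from the study's lists of line differences on these same arrays, so their levels are no independent measure of green tissue. Their mean level was 1.26 to 1.43 on the *Fl* arrays of 0 dpa and -0.80 to -0.09 on the other 9. The chlorophyll-binding protein LHCB1 (AT2G34430.1) was also called lower (-3.11, SE 0.11), whereas the chloroplast-encoded cytochrome petB (-0.17, SE 0.30) and ATP synthase beta (0.74, SE 0.30) were not.

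Technical levels differed between the groups too. The hybridization controls had mean levels of -0.27 to -0.22 on the *Fl* arrays of 0 dpa and of 0.31 to 0.55 on the *FL* arrays of 0 dpa. At 10 dpa they were at -0.01 to 0.28 in *FL* and at -0.09 to -0.01 in *Fl*. For these controls the *FL* arrays of 0 dpa thus lay furthest from the other groups. Actin probe sets from the 3′ end of the transcript minus those from the 5′ end gave differences of -0.79 to -0.70 in *Fl* at 0 dpa and of -0.17 to 0.36 on the other 9 arrays. The part of this 3′ difference and of the green-tissue transcripts in the early excess was not tested. Quantile normalization left all 55 transcripts called and in the same class. Centring each array on its hybridization controls did so too. That centring lowers every interaction by 0.50, so a lower call could hardly be lost, and 335 of all 335 lower calls stayed.

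**Figure D3:**
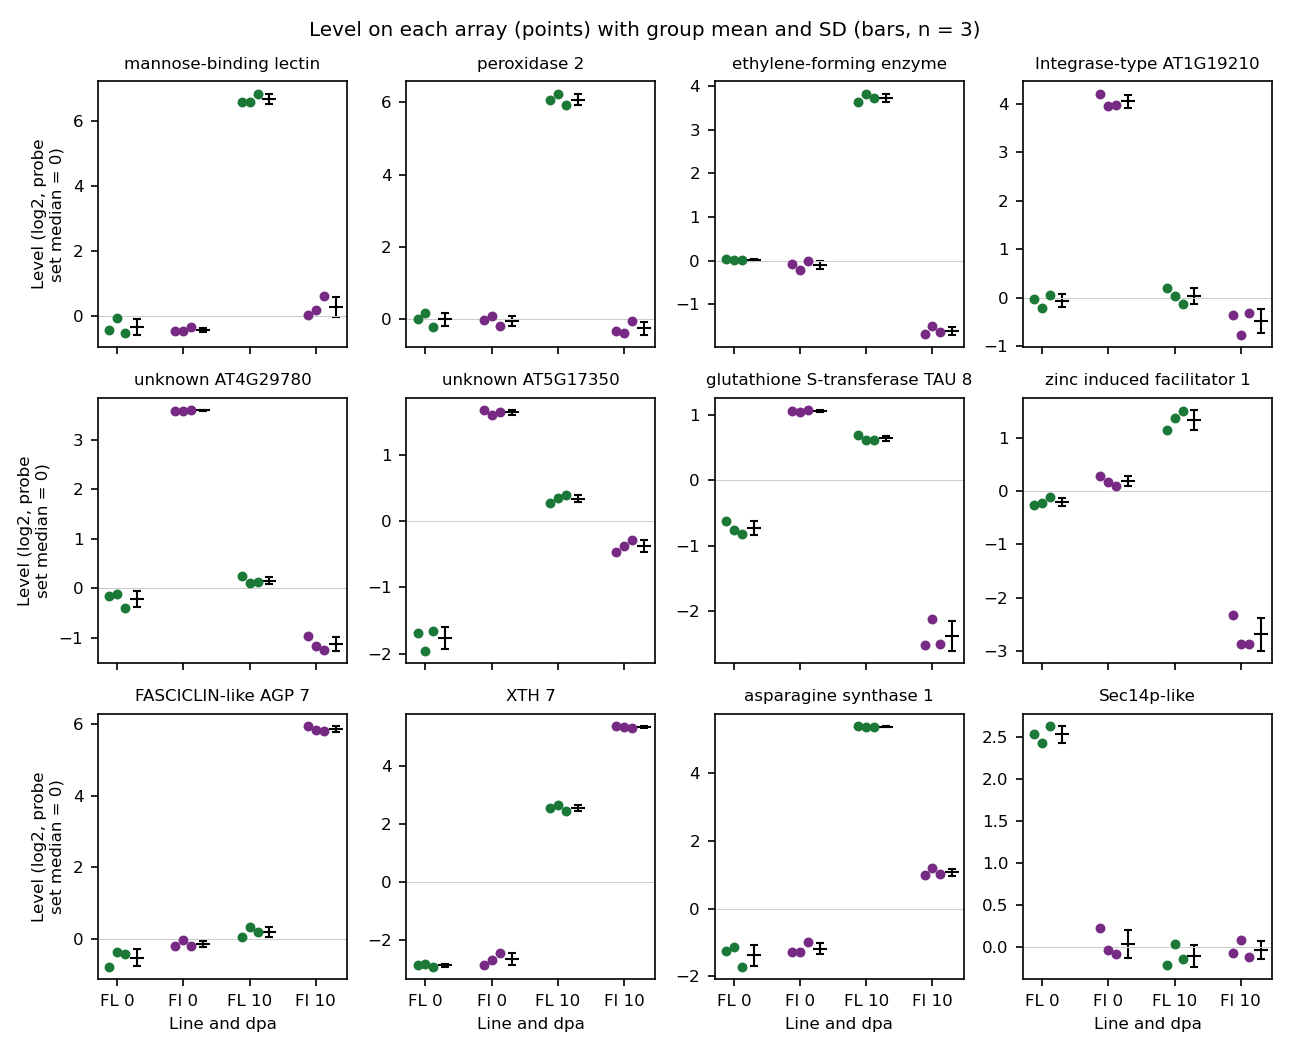
Level on each array (log2, points) of 12 transcripts in the 4 groups, with the group mean and SD (bars, n = 3). Lectin reaches 6.58 to 6.85 only in *FL* at 10 dpa, AT4G29780.1 reaches 3.58 to 3.60 only in *Fl* at 0 dpa, and FLA7 reaches 5.79 to 5.95 only in *Fl* at 10 dpa.

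The late loss in *Fl* comprised 42 transcripts, 19 with a named homolog, with interactions from -4.80 to -1.61 and a median of -2.34. Detoxification, chaperone, ethylene response and ethylene perception proteins were among them. Median levels were -0.14 in *FL* and 0.34 in *Fl* at 0 dpa, 0.26 in *FL* at 10 dpa and -1.48 in *Fl* at 10 dpa. The *Fl* arrays of 10 dpa lay below the other 9 for 42 of 42 (5.46% of all transcripts, and again the class was formed on these levels). The fall in *Fl* passed the threshold for 32 (1.08% of all transcripts). Under quantile normalization 42 stayed called, 40 of them in the class. Centred on hybridization controls, which lowers every interaction by 0.50, 42 stayed called but only 25 in the class.

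Glutathione S-transferase TAU 8 (AT3G09270.1), of a family that conjugates glutathione to toxic compounds, inverted between the stages. It measured -0.61, -0.76 and -0.82 in *FL* and 1.05, 1.04 and 1.08 in *Fl* at 0 dpa, and 0.68, 0.62 and 0.61 in *FL* and -2.51, -2.11 and -2.50 in *Fl* at 10 dpa. *Fl* was above *FL* on every array at 0 dpa and below it on every array at 10 dpa (interaction -4.80, SE 0.14, adjusted p = 6.5e-10). A DnaJ transcript (AT2G17880.1), of the co-chaperones of Hsp70, measured -0.60 to -0.34 in *FL* and 0.34 to 0.47 in *Fl* at 0 dpa, then 0.97 to 1.01 in *FL* and -3.04, -2.85 and -2.68 in *Fl* (interaction -4.74, SE 0.13). The *Fl* arrays of 10 dpa were the only ones below -0.60. Zinc induced facilitator 1 (AT5G13740.1), a vacuolar membrane transporter in *Arabidopsis*, measured 1.16 to 1.52 in *FL* and -2.88 to -2.33 in *Fl* at 10 dpa, with levels between -0.26 and 0.30 at 0 dpa in both lines (interaction -4.44, SE 0.20).

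Ethylene responsive element binding factor 1 (AT4G17500.1), an AP2-EREBP factor, was both high early and low late in *Fl*. At 0 dpa it measured 0.11, -0.13 and -0.37 in *FL* and 1.58, 1.60 and 1.66 in *Fl*, and at 10 dpa 0.00, 0.00 and 0.21 in *FL* and -2.38, -2.27 and -2.08 in *Fl* (interaction -4.06, SE 0.16). Its *FL* level hardly moved. An ethylene sensor histidine kinase (AT3G23150.1), of the hormone's receptors, stood at -0.11 to 0.45 on the 9 arrays of the other groups and at -2.07, -2.0 and -2.08 in *Fl* at 10 dpa (interaction -2.51, SE 0.12, named after its values were seen). Hs1pro-1 (AT3G55840.1), called after a nematode resistance protein of beet, had -4.46 (SE 0.22). The rest of the 10 leading homologs were a NAC factor (AT1G01720.1, -3.45), an F-box protein (AT4G21510.1, -3.10), a pyridoxal phosphate enzyme (AT2G20340.1, -3.0), a peroxidase (AT5G05340.1, -2.78) and a transcript of unknown function (AT2G27830.1, -2.63). A pair of seed-maturation transcripts examined as markers had mean levels of -1.62 to -1.44 in *Fl* at 10 dpa and of 0.10 to 0.69 on the other 9 arrays. Both were called lower (-2.72 and -2.40), neither belonged to the late-loss class, and their part in it was not tested. Both came from the study's 10 dpa list of line differences on these same arrays, so their lower level in *Fl* than in *FL* at 10 dpa was set by the listing. The 4 probe sets described as lipid-transfer or seed storage 2S albumin superfamily were not part of this pair. Their interactions ran from -4.92 to 1.11, with 1 called lower, so the pair does not speak for seed proteins in general.

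Repeat probe sets of a homolog mostly, but not always, had the same form. Of 172 homologs with a called interaction, 27 had more than 1 called probe set, and these fell into 1 class for 20 and into 2 classes for 7. The peroxidase AT5G05340.1 was such a case. On 1 probe set it measured 2.97, 2.82 and 2.77 in *FL* at 10 dpa against -0.91 to 0.47 elsewhere, a late rise in *FL* (-4.14, SE 0.17). On the other it measured -2.36, -2.13 and -2.36 in *Fl* at 10 dpa against -0.18 to 0.36 elsewhere, a late loss in *Fl* (-2.78, SE 0.13). The third probe set of ethylene-forming enzyme was likewise a late loss in *Fl* (-2.07), with a stage change of -0.87 in *FL* and -2.94 in *Fl*. Zinc induced facilitator 1, Hs1pro-1 and DnaJ were split too. The array was designed on several cotton species, and 193 of the 355 called probe sets (54.4%, against 47.6% of all tested) carry a suffix for probes shared with similar transcripts, so different genes of 1 family and a mixture of them cannot be told apart.

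An early deficit in *FL* was seen for 13 transcripts, only 2 of them with a named homolog, with a median interaction of -2.47. Their 3 *FL* arrays of 0 dpa lay below the other 9 in 13 of 13 (4.94% of all transcripts, and the class was formed on these levels). AT5G17350.1, of unknown function, measured -1.68, -1.96 and -1.66 in *FL* and 1.69, 1.62 and 1.65 in *Fl* at 0 dpa. *Fl* was about as far above the late levels as *FL* was below them, and the other 3 means spanned 2.03 without *FL* 0 dpa and 2.11 without *Fl* 0 dpa, so that it was nearly as much an early excess in *Fl*. The lines then approached each other from opposite sides, to 0.28, 0.36 and 0.39 in *FL* and -0.46, -0.38 and -0.28 in *Fl* (interaction -4.14, SE 0.12, adjusted p = 5.8e-10). Expansin A1 (AT1G69530.2), a wall-loosening protein, measured -1.47, -1.75 and -1.41 in *FL* at 0 dpa and between -0.25 and 0.54 on the other arrays. It was thus low early in *FL* and level afterwards, unlike expansin-like B1 (interaction -1.65, SE 0.15, adjusted p = 8.1e-06), and without *FL* 0 dpa replicate 2 it slipped under the 3-fold limit (-1.54). The opposite, an early excess in *FL*, was found for a Sec14p-like phosphatidylinositol transfer protein (AT1G01630.1), of a family that moves lipids between membranes. It measured 2.54, 2.43 and 2.63 in *FL* at 0 dpa and -0.22 to 0.22 on the other 9 arrays (interaction 2.57, SE 0.14, adjusted p = 1.0e-07). Its *FL* arrays of 0 dpa lay above the other 9, as for 8.96% of all transcripts, and it was the 1 transcript of the 355 below *FL* past the threshold in *Fl* at 0 dpa (0.0642% of all).

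The 20 higher interactions, in which *Fl* gained on *FL*, were led, among those with a homolog, by cell surface proteins. The *Fl* ovules stood high at 10 dpa for 10 of them, 5 with a homolog, with interactions from 1.62 to 5.30. *Fl* was above *FL* past the threshold at 10 dpa for 8 of the 10 (0.197% of all transcripts). The *Fl* arrays of 10 dpa lay above the other 9 for 10 of 10 (4.42% of all transcripts, and the class was formed on these levels). Fasciclin-like arabinogalactan 7 (FLA7, AT2G04780.2), a glycoprotein of the cell surface, measured -0.79, -0.37 and -0.41 in *FL* and -0.20, -0.04 and -0.21 in *Fl* at 0 dpa, then 0.04, 0.33 and 0.19 in *FL* and 5.95, 5.85 and 5.79 in *Fl*. It rose 64.5-fold in *Fl* and overlapped between the lines at no stage (interaction 5.30, SE 0.16, adjusted p = 6.8e-10). The homolog of a receptor-like kinase with leucine-rich repeats (AT5G01890.1) stood at -0.53 to 0.40 on the other 9 arrays and at 3.12, 3.12 and 3.01 in *Fl* at 10 dpa (interaction 2.89, SE 0.23, adjusted p = 2.5e-06). An unnamed transcript measured 4.29, 4.32 and 4.43 in *Fl* at 10 dpa (interaction 4.43).

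Smaller late gains in *Fl* were measured for the phosphoenolpyruvate/phosphate translocator 2 (AT3G01550.1), a carrier of the plastid membrane. It measured 1.93, 1.77 and 2.11 in *Fl* at 10 dpa and -0.34 to 0.06 elsewhere (interaction 1.95, SE 0.16). The nodulin MtN21-like transporter AT1G70260.1 (1.92, SE 0.12) and xyloglucan endotransglucosylase/hydrolase (XTH) 32 (AT2G36870.1, 1.71, SE 0.13) had stage changes of -0.93 and -0.60 in *FL* and of 0.99 and 1.11 in *Fl*, all under 3-fold. With arrays centred on hybridization controls these 3 interactions came to 1.45, 1.42 and 1.21 and were no longer called, while FLA7 had 4.80 and 9 of the 20 stayed called. Quantile normalization kept 19 of the 20. Just inside the limit an unnamed transcript had 1.59 (3.01-fold), and just outside it a ribonuclease H-like transcript (AT2G04420.1) had 1.58 (2.99-fold, SE 0.18). On the lower side the neighbours of the limit had -1.59 and -1.58.

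The enzymes that cut and rejoin xyloglucan in the wall were divided. XTH7 (AT4G37800.1) rose in both lines and more in *Fl*. On 1 of its 3 probe sets it measured -2.92 to -2.82 in *FL* and -2.84 to -2.44 in *Fl* at 0 dpa, 2.55, 2.65 and 2.44 in *FL* and 5.37, 5.34 and 5.31 in *Fl* at 10 dpa. The lines were level early, and *FL* rose 42.6-fold and *Fl* 254-fold. This probe set had an interaction of 2.58 (SE 0.13), and the others had 2.86 and 2.78. XTH29 (AT4G18990.1, -2.43) and XTH5 (AT5G13870.1, -1.80) were called lower, though both calls were lost under quantile normalization (-1.30 and -0.64), and XTH4 (AT2G06850.1, -0.93) and AT5G57560.1 (-1.16) were not called. Of the 8 XTH probe sets, 4 were higher and 2 lower, with a median of 0.39.

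No single group stood apart for 65 transcripts, 58 lower and 7 higher. Over all transcripts 2.94% rose past the threshold in *FL*, while 1.83% rose and 1.08% fell in *Fl*. Shares for the lines jointly were not counted. Among the 58, 25 rose past the threshold in both lines, 18 rose in *FL* only and 14 fell in *Fl* only. Asparagine synthase 1 was of the first kind on its leading probe set, at -1.26, -1.15 and -1.73 in *FL* and -1.27, -1.28 and -1.0 in *Fl* at 0 dpa, then 5.40, 5.37 and 5.36 in *FL* and 1.00, 1.20 and 1.01 in *Fl*. Both lines gained, by 6.75 in *FL* and 2.25 in *Fl*, and the interaction of -4.50 (SE 0.19) is the difference of these gains. A nitrate transporter (AT1G32450.1) gained 5.63 in *FL* and 2.63 in *Fl* (-3.0), and a cytochrome P450 (AT4G12320.1) had an interaction of -2.72. Beta galactosidase 1 (AT3G13750.1), 1 of 3 galactosidases that all rose in both lines, gained 5.22 in *FL* and 2.35 in *Fl* (-2.87). The other galactosidases had -2.0 (AT3G52840.1) and -1.64 (AT2G16730.1).

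Many of these interactions were lost under quantile normalization, which left 26 of the 65 called and took the 3 galactosidases to -1.44, -0.65 and -0.28, none of them called. The polygalacturonase inhibiting protein 1 (AT5G06860.1, -2.78), bifunctional nuclease I (AT1G11190.1, -2.58), trichome birefringence-like 38 (AT1G29050.1, -2.49), of a family that acetylates wall polysaccharides, and an acyl-transferase (AT5G01210.1, -2.46) lost their calls too. The third galactosidase also lost its call without *FL* 0 dpa replicate 3 (-1.51) or without *Fl* 0 dpa replicate 1 (-1.55). LHCB1 was of another kind, with a level that fell in *Fl* alone. It measured 0.27, 0.00 and 0.05 in *FL* and 1.67, 1.75 and 1.73 in *Fl* at 0 dpa, and -0.02, 0.00 and -0.09 in *FL* and -1.53, -1.45 and -1.63 in *Fl* at 10 dpa (-3.11, SE 0.11). *FL* was level throughout, and *Fl* was above it on every early array and below it on every late one. Glutathione S-transferase phi 12 (AT5G17220.1), which in *Arabidopsis* is needed for anthocyanin to reach the vacuole, had stage changes of -1.38 in *FL*, under 3-fold, and -4.32 in *Fl* (-2.94).

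The interaction was also called where the same fit called the line difference at neither stage. Of the 355, 53 had a called line difference only at 0 dpa, 204 only at 10 dpa, 7 at both and 91 at neither (85 lower and 6 higher). Over all transcripts tested the line difference was called for 83 (0.381%) at 0 dpa and for 270 (1.24%) at 10 dpa. The 91 had interactions of 1.59 to 2.66 in size, with line differences of opposite sign at the stages. The opposite signs follow from the selection and are no finding. Line differences of the same sign that are both under 3-fold cannot give a 3-fold interaction. Names were known for 2 of the 91, since the lists that give names were made from line differences at single stages. Both were on the study's 10 dpa list, for which its own values and test had placed them past its limits. With the deposited values fitted here they fell short, and the reason for the difference was not tested. A Nodulin MtN3-like transcript (AT5G50790.1), of a family of sugar transporters, measured -0.21 to 0.14 on all arrays of 0 dpa, 1.03, 0.72 and 0.86 in *FL* and -0.79, -0.36 and -0.72 in *Fl* at 10 dpa. Its line difference of -1.49 at 10 dpa was under the limit and its interaction of -1.66 (SE 0.17, adjusted p = 2.6e-05) over it. The other was a Rossmann-fold oxidoreductase (AT3G51680.1, -1.64, SE 0.30). Both were singled out here after their values were seen.

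Line differences had opposite signs at the stages for 261 of the 355, with an adjusted p of at most 0.01 at both stages for 121. The share over all transcripts was not counted. A large interaction itself favours opposite signs, so nothing is read from these counts. The 7 transcripts past 3-fold at both stages all went from higher to lower in *Fl*. They were terpene synthase 21, glutathione S-transferase TAU 8, Hs1pro-1, ethylene responsive element binding factor 1 and 3 unnamed ones. Stage changes past the threshold in opposite directions, up in *FL* and down in *Fl*, were found for 4, namely AT5G17350.1 and 3 unnamed. One unnamed transcript met both conditions, with levels of -0.88, -1.07 and -0.82 in *FL* and 0.93, 0.82 and 0.82 in *Fl* at 0 dpa, and 1.15, 1.37 and 1.37 in *FL* and -1.01, -0.93 and -0.86 in *Fl* at 10 dpa. The lines exchanged places without overlap at either stage (interaction -4.01, SE 0.12, adjusted p = 7.3e-10), and another unnamed one did the same (-3.91, SE 0.15).

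Stage changes summed up the same calls from the side of development. Of the 335 lower interactions, 148 rose in *FL* only, 89 fell in *Fl* only, 25 rose in both lines, 4 rose in *FL* and fell in *Fl*, and 69 had no stage change past the threshold in either line. Of the 20 higher ones, 7 rose in *Fl* only, 3 rose in both lines, 2 fell in *FL* only and 8 had none. The background share of transcripts with a called stage change was 3.87% in *FL* (2.94% up and 0.927% down). In *Fl* it was 2.91% (1.83% up and 1.08% down). Shares for the lines jointly were not counted.

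The study's lists give the other genes of each kind, but they were made from line differences at 1 stage on these same arrays, so that both the direction and the stage of the group that stood apart were largely set by the listing and are no independent evidence. Of the whole 0 dpa list, 41 of 58 were lower, 32 of the 58 as an early excess in *Fl*, and of the whole 10 dpa list, 187 of 220 were lower, 136 of the 220 as a late rise in *FL*. The counts of the lists that follow stand against these shares, and nothing particular to a list is read from them. Of 11 transcripts listed as transcription factors at 0 dpa, 11 had a lower interaction (1.54% of all transcripts), with a median of -2.61 against 0.06 over all transcripts. The *Fl* ovules stood high at 0 dpa for 10 of them, among which were all 7 of AP2-EREBP, 2 of C2H2 (zinc fingers, ZAT6, AT5G04340.1, at -3.22) and WRKY40 (AT1G80840.1, -2.47). The remaining one, salt tolerance zinc finger (AT1G27730.1, -3.41), was a late rise in *FL*. The genes named from the study's transcription factor and hormone lists were picked after their values were seen.

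Of 30 transcripts listed as transcription factors at 10 dpa, 29 had a lower interaction, with a median of -2.72, and the other did not pass (a probe set of indole-3-acetic acid inducible 14, -1.0). The *FL* ovules stood high at 10 dpa for 23, the *Fl* ovules low at 10 dpa for 4, and 2 had no group apart. NAC factors, plant-specific regulators of wall formation and senescence, were lower in 5 of 5 (median -3.17), with 4 late rises in *FL* and 1 late loss in *Fl*. NAC047 (AT3G04070.1) measured -0.44 to -0.32 in *FL* and -0.85 to -0.24 in *Fl* at 0 dpa, then 4.48, 4.45 and 4.43 in *FL* and 0.50, 0.24 and 0.61 in *Fl* (interaction -3.90, SE 0.20, adjusted p = 5.6e-08). Homeobox factors were late rises in *FL* in 3 of 3, led by homeobox protein 40 (AT4G36740.1, -3.60). The WRKY list, lower in 6 of 6, held 3 WRKY factors, WRKY70 (AT3G56400.1, -3.57), WRKY75 (AT5G13080.1, -2.99) and WRKY23 (AT2G47260.1, -1.80). Its other 3 members, as the study filed them, were signalling kinases and no transcription factors. They had interactions of -1.79 for AT5G55560.1, of -2.95 for mitogen-activated protein kinase 3 and of -2.26 for MAP kinase kinase 9. The AP2-EREBP family had an early excess in *Fl* for all 7 listed at 0 dpa, and 4 late rises in *FL* and 2 late losses in *Fl* for the 6 listed at 10 dpa. Under quantile normalization 3 of the 5 NAC factors stayed called.

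**Figure D4:**
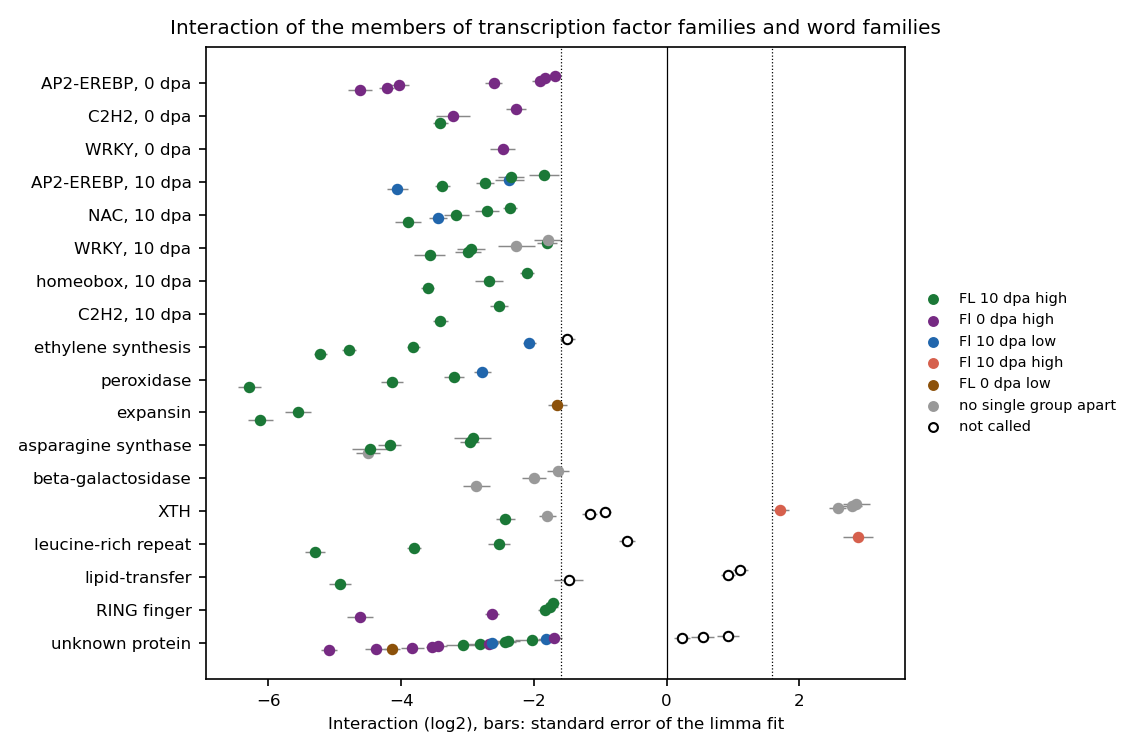
Interaction (log2, bars for the standard error of the limma fit) of each member of the transcription factor families and of the transcript families gathered by name, coloured by the group that stood apart, with open symbols for members not called. The AP2-EREBP members of the 0 dpa list are all coloured for *Fl* high at 0 dpa, and the XTH family spans both sides of 0, from -2.43 to 2.86.

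The hormone lists were part of the same listing and divided much as the whole lists did. Of 26 transcripts listed for hormones at 0 dpa, 23 had a lower interaction (18 with an early excess in *Fl*), and of 82 listed at 10 dpa, 71 were lower and 5 higher, against 187 lower and 9 higher of 220 in the whole 10 dpa list and 1.54% lower over all transcripts. Ethylene transcripts were lower in 7 of 7 at 0 dpa (median -2.94) and in 17 of 17 at 10 dpa (median -3.20), of which 10 were late rises in *FL*, 5 late losses in *Fl* and 2 without a group apart. Gibberellin transcripts listed at 10 dpa were lower in 5 of 5, with gibberellin 3-oxidase 1, which makes the active hormone, at -2.24 and 2 relatives of its receptor at -2.43 (AT3G63010.1) and -2.37 (AT5G06570.2). The receptor relatives were late losses in *Fl* and the oxidase a late rise in *FL*, and 2 of the 5 stayed called under quantile normalization. Auxin probe sets at 10 dpa were 11 lower and 4 higher of 18, of which 9 in all stayed called under quantile normalization. The 4 higher were the 3 probe sets of XTH7 and that of XTH32.

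Functional bins of the 10 dpa list, in which 187 of 220 were lower, were again subsets of a list chosen for its line difference. Secondary metabolism was lower in 8 of 8, amino acid metabolism in 8 of 9, stress in 14 of 15 (1 higher) and transport in 10 of 11 (1 higher). The cell wall bin had 8 lower and 5 higher of 14. The 5 higher were FLA7, XTH32 and the 3 probe sets of XTH7. Families gathered by name hold only transcripts of the study's lists, chosen in the same way. In them peroxidases were lower in 4 of 4 (median -3.67), expansins in 3 of 3 (-5.56) and transcripts of unknown function in 15 of 18 (-2.65). RING finger transcripts were lower in 5 of 5 (-1.83), of which 2, AT5G59550.1 and the brassinosteroid-responsive RING-H2 (AT3G61460.1, -2.63), were early excesses in *Fl*. The other 3, AT2G04240.2 (-1.83), AT4G37890.2 (-1.76) and AT3G25030.2 (-1.72), were late rises in *FL* and were not called under quantile normalization.

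The share of each class moved with the processing. Quantile normalization gave 265 lower and 47 higher interactions, with 67 late rises in *FL*, 86 early excesses in *Fl* and 66 late losses in *Fl*. Centring on hybridization controls moved the median interaction of all transcripts from 0.06 to -0.44 and gave 591 lower and 9 higher interactions, with 228 late rises in *FL* and 131 early excesses in *Fl*. Of the 355 transcripts, 227 were called under every setting in which they were tested, among them 53 of the 55 early excesses in *Fl*, and 316 were called whichever array was left out.

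**Figure D5:**
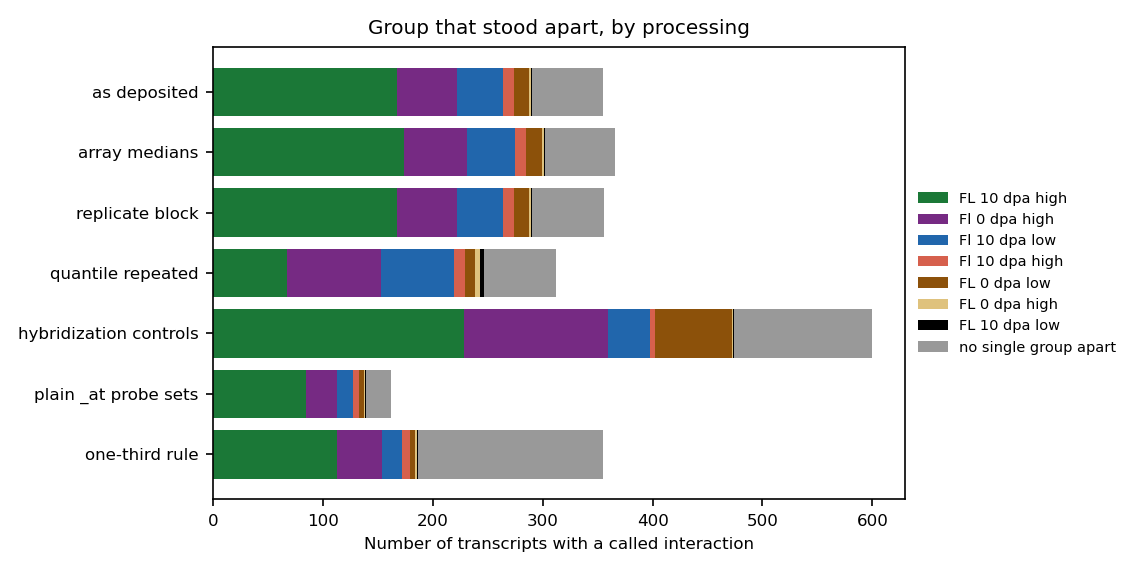
Number of transcripts with a called interaction under 7 ways of processing, each bar divided by the group that stood apart. The late-rise class in *FL* falls from 167 to 67 under quantile normalization, while the early-excess class in *Fl* goes from 55 to 86.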

How the data were processed

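Total RNA of ovules had been hybridized to the Affymetrix cotton GeneChip, and the authors had made 1 log2 value per probe set and array by robust multiarray averaging (RMA). The deposited log2 values are centred, with a median of 0 for each probe set, by a step not given in the sources used here. All 12 value columns were matched to samples by title, and array numbers, not read depth, set the precision. Control probe sets (98) were left out, 21791 were fitted in limma 3.58.1 (R 4.3.3) by 1 mean per group with moderated variances, and p-values were adjusted over all of them (Benjamini-Hochberg). The interaction and 4 line and stage contrasts came from this fit, which replaced the unpaired test of single contrasts in the study's methods. The fit was tested on simulated data. Replicate numbers in the labels were not used to pair arrays. Called transcripts were named from the study's lists. Those in the text by rule were every higher one with a homolog, the 10 largest with a homolog in each class of lower ones, called members of the families gathered by name, and neighbours of the 3-fold limit. Members of the marker, transcription factor and hormone lists named beside them were outside this rule and were picked with their values known. Members and lists were chosen with earlier results of these data known. No genome or probe annotation was used here, so no sequence or position is given. Alternatives were array weights, ordinary and robust variances, median centring, quantile normalization, hybridization-control centring, a replicate block, plain probe sets only, a stricter class rule and each array left out.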

Additional observations from a re-analysis of the deposited data

Results flagged for a closer look

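The line difference was inverted past 3-fold at both stages, from higher in *Fl* at 0 dpa to lower in *Fl* at 10 dpa, for 7 transcripts, each with a called interaction in the limma fit: glutathione S-transferase TAU 8 (-4.80), Hs1pro-1 (-4.46), terpene synthase 21 (-4.12), ethylene responsive element binding factor 1 (-4.06) and 3 unnamed transcripts (-4.01, -3.91 and -3.40). The stage change ran up in *FL* and down in *Fl*, past 3-fold in both, for AT5G17350.1 (-4.14), the first 2 of these unnamed transcripts (-4.01 and -3.91) and another unnamed one (-3.69). Control probe sets, which entered no comparison of transcripts, differed between the lines at 0 dpa. *Fl* minus *FL* was -0.653 for the spiked hybridization controls, -0.377 for the spiked polyA controls and -0.464 for the actin 3′ probe sets.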

How the results depend on the processing

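The 335 lower and 20 higher interactions and their classes came within 1.5 times of these counts under array weights, ordinary and robust variances, array median centring and the replicate block. With hybridization-control centring there were 591 lower and 9 higher, with 70 *FL* low and 1 high at 0 dpa, 131 *Fl* high at 0 dpa, 4 *Fl* high at 10 dpa and 126 without a group apart. Quantile normalization gave 47 higher (265 lower), with 5 *FL* high at 0 dpa, 67 *FL* high and 3 low at 10 dpa, 86 *Fl* high at 0 dpa and 66 *Fl* low at 10 dpa. With plain probe sets only (11425 tested) there were 151 lower and 11 higher, with 1 *FL* high and 4 low at 0 dpa, 84 *FL* high at 10 dpa, 29 *Fl* high at 0 dpa, 6 *Fl* high and 14 low at 10 dpa and 23 without a group apart. The stricter class rule left 1 *FL* high and 5 low at 0 dpa, 18 *Fl* low at 10 dpa and 169 without a group apart. Leaving out each array in turn gave 329 to 351 lower and 18 to 29 higher (29 without *FL* 10 dpa replicate 3), 2 to 3 *FL* high and 11 to 14 low at 0 dpa, 160 to 176 *FL* high and 1 to 3 low at 10 dpa, 54 to 62 *Fl* high at 0 dpa, 9 to 10 *Fl* high and 42 to 46 low at 10 dpa, and 61 to 71 without a group apart. The causes were not tested, beyond the smaller number of probe sets in the plain setting. Of 1617 alternative values of the 83 named transcripts, 23 lost the call (17 under quantile normalization, 3 under hybridization centring, 3 with an array left out) and none changed sign. Deviations of same-numbered replicates from their group means correlated at -0.203 to 0.085 over 18 pairs, and those of differently numbered ones at -0.115 to 0.17 over 36. This cannot show whether same-numbered arrays shared more than a number. With the replicate block 335 were lower and 21 higher. Quantile normalization was applied to centred values and gives all arrays the same spread. With 3 arrays a group, interactions near 3-fold and their classes are uncertain, values of centred probe sets carry no absolute level, and low signal could not be filtered.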
